A study of Anolis carolinensis with 15 samples.

Results

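Sorted col3a1+ cells from tails that had regrown for 28 days (D28) were compared with sorted col3a1+ cells from tails of PBS-injected animals that had regrown for 21 days (PBS D21). The comparison used 6 of the 15 RNA-seq libraries of the series, 3 of each group, and asked how the later regrown tail of the time course differed from the vehicle control of the drug experiment. Of 26523 genes with a deposited count, 19057 reached 10 counts in 3 or more libraries of the 6 and were tested. All animals were green anoles (Anolis carolinensis) aged 9 to 12 months, of both sexes, with the original tail amputated. The D28 animals belonged to a time course with collections on days 7, 14 and 28 and have no treatment in their labels. The PBS D21 animals were the vehicle controls of an experiment with zoledronic acid (ZA), an inhibitor of osteoclasts, and received PBS intraperitoneally from the week before amputation until collection. Day, injection and experiment therefore differed together and cannot be told apart in any value given here. The study also mentions batch effects within each experiment. It names a D14 sample, sequenced earlier than the rest of the time course, as most likely affected. Which PBS or ZA libraries were affected is not stated. In both groups the tissue was digested, and the cells were fixed, hybridized with probes for col3a1 and krt5 and sorted. The study's text gives the D28 cells both as krt5- and as krt5+, whereas the PBS D21 cells are given as krt5-. One of the PBS D21 libraries, A, has no PBS entry in its treatment record, and its title was followed. The labels do not say that the 3 libraries of a group came from separate animals. The study's text gives 3 tails for each condition of the D21 experiment and calls them biological replicates. For the time course it gives 3 repeats at each day. P-values measure only the spread between these libraries.

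Collagen III, encoded by col3a1, is a fibrillar collagen of dermis, tendon sheath and other soft connective tissue, and cells rich in it are usually called fibroblasts. In the regrowing lizard tail, connective tissue cells first gather under the wound epidermis as a blastema. Cells in its core then become the chondrocytes of an unsegmented cartilage tube, while cells around it form dermis, fat and the sheaths of new muscle. Chondrocytes deposit collagens II, IX and XI and aggrecan under the control of the transcription factor Sox9, and enlarge and mineralize under Runx2.

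The total count was 6964388, 9892747 and 9545992 in D28 A, B and C and 11329947, 8301524 and 6310232 in PBS D21 A, B and C. One library stood apart from the other 5. Spearman correlations across genes were 0.72 and 0.73 between D28 A and its fellow replicates, and 0.92 between D28 B and C, whereas the PBS D21 libraries correlated at 0.85 to 0.86 with each other. The first principal component of the 500 most variable genes held 48.2% of the variance, on which D28 A lay at -92.9 and the other libraries between -0.93 and 31.7. Both A libraries had fewer genes with 1 to 9 counts, 1533 in D28 A and 1494 in PBS D21 A, than the others, which had 2826 to 3318. The counts of calls, the list medians and the fold changes of the genes of lowest p are therefore also given without the A library of each side.

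No gene passed the test. By edgeR's quasi-likelihood test with Benjamini-Hochberg adjustment, 0 genes (0% of those tested) were called higher in D28 and 0 (0%) lower, where a call needed an adjusted p under 0.05 and a log2 fold change beyond 2. At an unadjusted p under 0.05 the test gave 588 genes (3.09%), of which 361 (1.89%) were higher and 227 (1.19%) lower in D28. This is a smaller share than the threshold of 0.05 passes on average when no gene differs. DESeq2 called 14 genes higher (0.0735%) and 13 lower (0.0682%). Without the A library of each side, edgeR called 4 genes higher (0.021%) and 2 lower (0.0105%). The fold changes were spread evenly, with 9752 genes higher and 9305 lower and a median log2 fold change of 0.02. Long noncoding RNAs leaned to the high side with 6 libraries, 1388 of 2159 and a median of 0.35, but not without the A libraries, where the median was -0.06. The 3 D28 libraries all lay above the 3 PBS D21 libraries in 1014 genes (5.32%) and all below them in 818 genes (4.29%). With 3 libraries against 3, shares of about this size arise when the groups do not differ. Libraries that lie entirely above or below are thus a description and no evidence of a difference in a gene. Of the tested genes, 147 passed the filter on low counts through D28 alone and 26 through PBS D21 alone, so that these had to differ, and 144 of the 1014 and 26 of the 818 are of this kind. Most of the genes that DESeq2 called higher also passed the filter through D28 alone and could only come out higher. Precision was low, with a median standard error of 0.69 on the log2 scale. The 95% interval of the log2 fold change lay within 2 of 0 on both sides in 9097 genes (47.7%) and within 1 in 448 (2.35%), so that for most genes a several-fold difference was not detectable and is not shown to be absent. In the following, values of single libraries are TMM-normalized counts in the order A, B and C, log2 fold changes are D28 over PBS D21, and the adjusted p by edgeR was over 0.9 for every gene but 4.

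The 4 genes with a smaller adjusted p have no name in the annotation. DESeq2, run on the same 6 libraries, called all 4. Its adjusted p was 7.08e-10 for LOC100566287, 1.96e-08 for LOC107983357, 1.71e-06 for LOC100553480 and 0.000448 for LOC100562030. LOC100566287, a protein-coding gene on chromosome 2, 155583455 to 155594180 of rAnoCar3.1.pri, had 127, 91.1 and 155 in D28, against 2055, 1454 and 1031 in PBS D21. The log2 fold change was -3.60 (95% interval -4.64 to -2.57), with an adjusted p of 0.183 by edgeR. The groups were separated by a wide gap, from the highest D28 library at 155 to the lowest PBS D21 library at 1031. LOC107983357, a lncRNA on an unplaced scaffold, had 0, 12.8 and 10.3 in D28, against 420.3, 184 and 494 in PBS D21 (-5.51, edgeR adjusted p = 0.794). LOC100553480 had 7.14, 19.1 and 40.2 in D28, against 272, 284 and 1027 in PBS D21 (-4.55, edgeR adjusted p = 0.794). LOC100562030 was the only one of the 4 that was higher in D28, with 573, 1172 and 1397 in D28, against 218, 142 and 137 in PBS D21 (2.66, edgeR adjusted p = 0.806).

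Among genes with a name whose libraries did not overlap between the groups, the 10 of lowest unadjusted p in each direction were taken, because no gene was called. Of the genes higher in D28, that of lowest p was col8a1, a short-chain collagen of vessel walls encoded on chromosome 3, 42725419 to 42858689, with 671, 471 and 218 in D28, against 99.1, 66.1 and 97.3 in PBS D21. Its log2 fold change was 2.37 ± 0.53 (SE) with all 6 libraries and 2.07 without the A libraries. The sodium bicarbonate cotransporter slc4a4 (chromosome 5, 11921449 to 12179650) had 348, 1276 and 1058 in D28 and 249, 139 and 82 in PBS D21, and its log2 fold change was 2.51 ± 0.59 (3.40 without the A libraries). The water channel aqp1 (chromosome 6, 113854821 to 113889292) had 304, 275 and 284 in D28 and 69.9, 60.0 and 114 in PBS D21, with D28 libraries that hardly differed (1.82 ± 0.49, and 1.69 without the A libraries). The fatty acid hydroxylase fa2h had 112, 237 and 268 in D28 and 54.9, 19.3 and 38.4 in PBS D21 (2.45 ± 0.65, 3.13 without the A libraries). These D28 libraries were at least 2 times as high as any PBS D21 library except for slc4a4 in D28 A. The dynein dnah5 of motile cilia had 75, 416 and 167 in D28 and 37.2, 31.5 and 8.97 in PBS D21 (3.07 ± 0.81, 3.82 without the A libraries). D28 A was the lowest D28 library in slc4a4, fa2h and dnah5 and the highest in col8a1 and aqp1. The syntrophin sntg1 had 119, 143 and 202 in D28 and 38, 13.2 and 28.2 in PBS D21 (2.54 ± 0.69, 3.06 without the A libraries).

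Of the 10, 3 had no count in PBS D21 and low counts in D28, and with grk7 they passed the filter through D28 alone, so that they could only be higher in D28. The osteoclast phosphatase acp5 had 109.5, 11.8 and 24 in D28 and 0, 0 and 0 in PBS D21, which sets the ratio of summed counts at least 41.3-fold higher in D28 when 3 counts are allowed over the PBS D21 group. The potassium channel kcnj15 had 85.7, 34.6 and 12.8 in D28 and 0, 0 and 0 in PBS D21, at least 38.8-fold higher in D28. The scavenging chemokine receptor ackr4 had 26.2, 27.3 and 47.1 in D28 and 0, 0 and 0 in PBS D21, at least 33.2-fold higher in D28. The kinase grk7, known from cone photoreceptors, had 183, 24.6 and 47.1 in D28 and 0, 2.03 and 0 in PBS D21. Its summed counts of 236 in D28 and 2 in PBS D21 gave a ratio of 110 with an exact 95% interval of 30.1 to 913. Most counts of acp5, kcnj15 and grk7 came from D28 A. Without the A libraries the floors were at least 10.6-fold higher in D28 for acp5, 13.8-fold for kcnj15 and 22.1-fold for ackr4, and the ratio of grk7 was 31.9 (8.56 to 268). These floors and intervals cover counting error only. They compare D28 with PBS D21 alone, and the levels of acp5, kcnj15, ackr4 and grk7 after ZA are given below.

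Of the 10 named genes of lowest p that were lower in D28, the PDZ and RING domain gene pdzrn4 (chromosome 5, 144641645 to 144928534) had 70.2, 460.1 and 323 in D28, against 2671, 1451 and 1589.5 in PBS D21 (-2.74 ± 0.64, SE, and -1.96 without the A libraries). N-cadherin, cdh2 (chromosome 4, 54235464 to 54400554), which joins mesenchymal cells, had 38.1, 54.7 and 70.2 in D28, against 142, 359.9 and 219 in PBS D21 (-2.14 ± 0.58, -2.21 without the A libraries). The sodium pump subunit atp1b1 had 188, 243 and 237 in D28, against 938, 477 and 629 in PBS D21 (-1.61 ± 0.43, -1.20 without the A libraries). In cdh2 and atp1b1 the D28 libraries lay close together. The actin-binding gene marcksl1 had 895, 659 and 577 in D28, against 2956, 1403 and 1628 in PBS D21 (-1.49 ± 0.45, -1.29 without the A libraries). The calcium channel subunit cacna1d had 107, 56.5 and 85.6 in D28, against 419, 205 and 247 in PBS D21 (-1.81 ± 0.52, -1.67 without the A libraries). The spindle gene troap had 73.8, 128 and 109 in D28, against 186, 517 and 334 in PBS D21 (-1.74 ± 0.52, -1.84 without the A libraries). By the way these genes were chosen, the highest D28 library of each lay below the lowest PBS D21 library. The homeobox gene evx1, a marker of the posterior embryonic axis, had 29.8, 14.6 and 6.85 in D28, against 60.2, 140.3 and 146 in PBS D21 (-2.76 ± 0.85, -3.73 without the A libraries). The other genes were palm3 (-1.87, -1.42 without the A libraries), the decoy receptor tnfrsf6b (-1.79, -1.53) and li-ac-37, which had 218, 2340.4 and 3299 in D28, against 28702, 7059.7 and 26094 in PBS D21 (-3.40 ± 0.92, -2.56 without the A libraries). In li-ac-37, D28 A was far below D28 B and C.

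**Figure D1:**
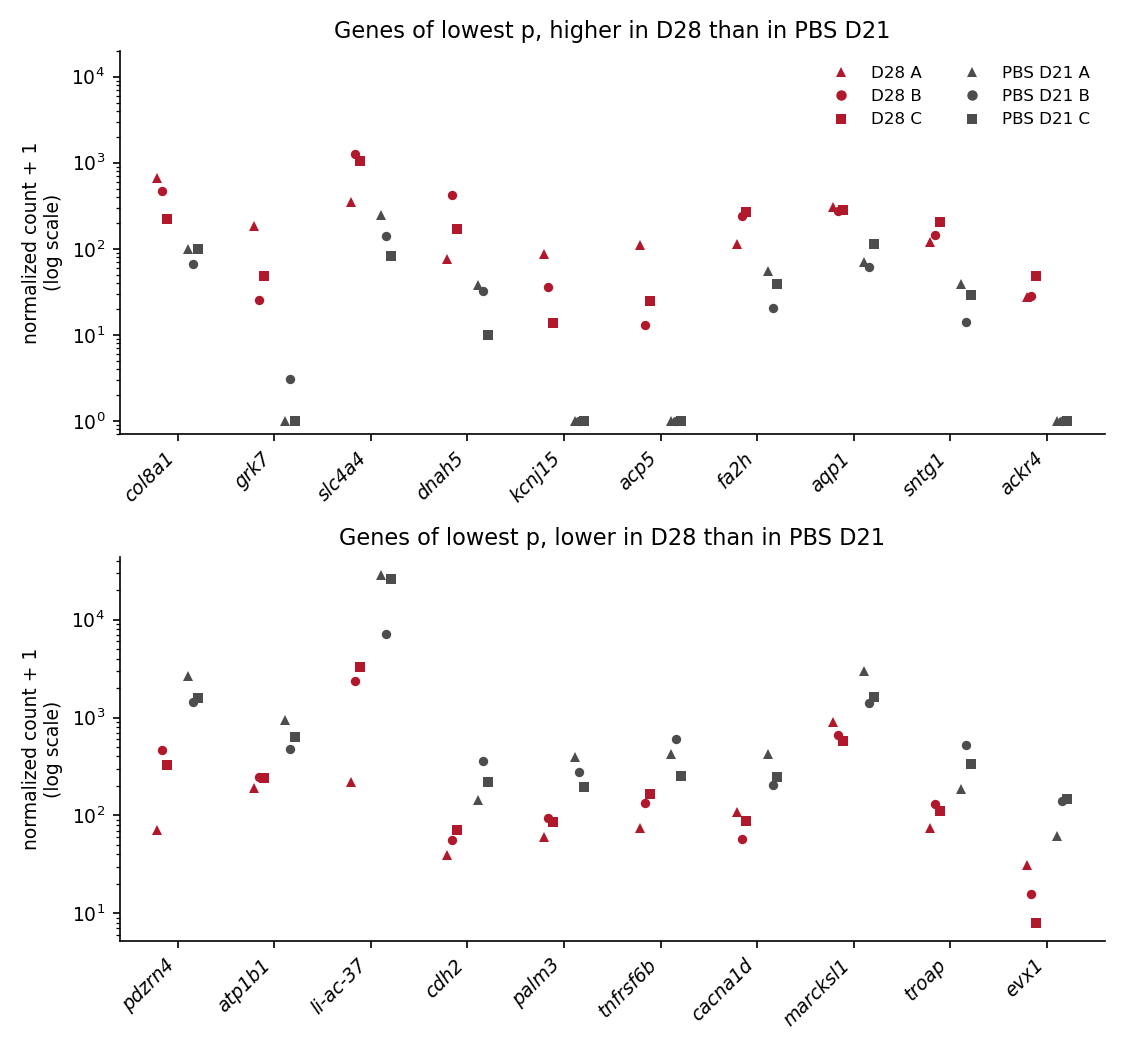
Normalized count plus 1 (y axis, log scale) of the 10 named genes of lowest p that were higher (top) and lower (bottom) in D28; each point is a library, D28 in red left of PBS D21 in grey, with the replicate letter as shape. In acp5, kcnj15 and ackr4 the 3 PBS D21 libraries sit at 0 counts, and in aqp1 the D28 libraries lie between 275 and 304 against 60.0 to 114 in PBS D21.

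Because the groups come from separate experiments, the levels of these genes in all 15 libraries, normalized together, are given as a description. Several genes that were low in D28 against PBS D21 were high in D14, a group of the same time course as D28. LOC100566287 had 172, 114 and 33.8 at D7, 2621, 2863 and 1543 at D14 and 141, 101 and 171 at D28, and in the D21 experiment 1384, 2201 and 1845 after ZA and 2268, 1605 and 1138 after PBS. Levels of pdzrn4 were 95.4, 20.1 and 35.1 at D7, 1077, 1185 and 1017 at D14 and 77.5, 508 and 356 at D28, against 1197, 2097 and 852 after ZA and 2948, 1601 and 1754 after PBS. In both genes every D7 and D28 library lay below every D14, ZA and PBS library. Cdh2 was different, with 505, 385 and 392 at D7, 413, 488 and 561 at D14 and 42, 60.3 and 77.5 at D28, 53.8, 166 and 355 after ZA and 156, 397 and 242 after PBS, so that D28 was also low within its own time course. Among the genes higher in D28, aqp1 had its 3 highest libraries at D28, and its other 12 libraries lay between 61.9 and 172. Elastin was also high at D28, though not in all libraries above PBS D21 A, and had 1158, 1498 and 1119 at D7, 723, 533 and 782 at D14 and 21307, 5347 and 9172 at D28, against 3176, 904 and 1313 after ZA and 5809, 1757 and 2414 after PBS. Acp5, kcnj15, ackr4 and grk7, at or near 0 in PBS D21, had counts after ZA. Ackr4 had 28.9, 30.2 and 51.98 at D28 and 33.3, 47.4 and 10.04 after ZA. Grk7 had 202, 27.1 and 51.98 at D28 and 17.9, 38.5 and 35.6 after ZA. Acp5 had 121, 13.1 and 26.5 at D28 and 103, 14.4 and 13.7 after ZA. Kcnj15 had 94.6, 38.2 and 14.2 at D28 and 51.3, 0.803 and 11.9 after ZA. In each, every ZA and D14 library lay above every PBS D21 library, and ZA overlapped with D28. Across the 19057 genes, 27 separated all 9 time course libraries from all 6 libraries of the D21 experiment, 13 higher and 14 lower in the time course. None of the 20 genes of lowest p named above was among them. A difference between the experiments that was confined to D28 or to PBS D21 would not enter this count.

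**Figure D2:**
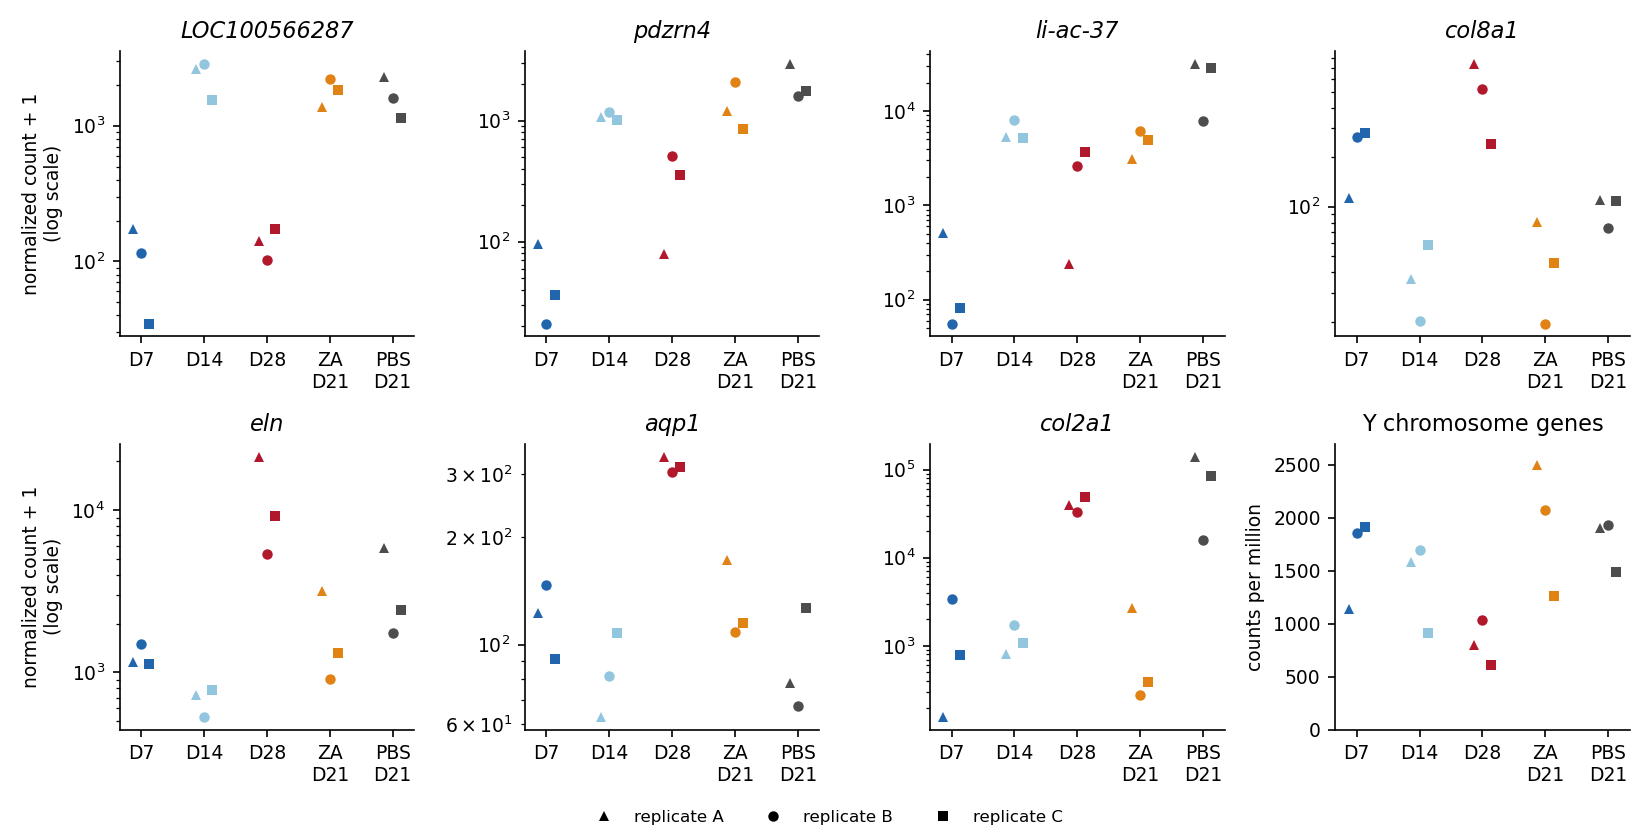
Normalized count plus 1 (y axes, log scale) of 7 genes and, in the last panel, the CPM summed over the 28 Y chromosome genes (linear y axis) in all 15 libraries; columns are D7, D14 and D28 of the time course and then ZA D21 and PBS D21, and shapes are replicates. LOC100566287 and pdzrn4 are low at D7 and D28 and high at D14. Li-ac-37 is low at D7 and in D28 A, while D28 B and C lie between the D7 and the D14 libraries. Col2a1 is high at D28 and PBS D21 and lower in the other groups.

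Calls appeared when the A library of each side was left out or when DESeq2 was used. Without D28 A and PBS D21 A, edgeR called li-ac-27 (log2 fold change 4.93, adjusted p = 0.0261), the matrix protein gene adamtsl3 (4.14, 0.0482), slc4a4 (3.40, 0.0482) and LOC100562030 (3.20, 0.0482) higher in D28. It called LOC100559332 (-4.08, 0.0482) and LOC103278810 (-3.98, 0.0317) lower. LOC100559332 had 35.7, 94.7 and 215 in D28, against 546, 2135 and 3106 in PBS D21 (-4.06 with all 6 libraries), and LOC103278810 had 111, 66.5 and 65.9 in D28, against 168, 869 and 1221 in PBS D21 (-3.22). Li-ac-27 had 63.1, 2541 and 4853 in D28, against 412, 118 and 124 in PBS D21, so that D28 A was below every PBS D21 library. Adamtsl3 had 144, 353 and 489 in D28, against 253, 24.4 and 23.1 in PBS D21, so that PBS D21 A was far above its fellow replicates. With all 6 libraries the log2 fold change was 3.51 for li-ac-27 and 1.71 for adamtsl3. Further named genes of lowest p in that fit were higher in D28 B and C for acsl5 and lower for pex5l, mtcl3, sulf1 and nat16. Mtcl3 had 104, 21 and 36.8 in D28, against 122, 219 and 292 in PBS D21 (-1.97), with no overlap with all 6 libraries either. The acyl-CoA synthetase acsl5 had 118, 2489.8 and 1875 in D28, against 362, 578 and 275 in PBS D21 (1.88). The sulfatase sulf1, which trims heparan sulfate, had 81, 343 and 334 in D28, against 138, 1184 and 1198 in PBS D21 (-1.73). In acsl5, D28 A was the lowest library, and in sulf1 both A libraries were far below their fellow replicates. Pex5l had 28.6, 20.04 and 13.7 in D28, against 0, 279.6 and 321 in PBS D21 (-3.27), with 0 in PBS D21 A, and nat16 had 450.0, 26.4 and 24.8 in D28, against 165, 199 and 214 in PBS D21, with D28 A above every other library. DESeq2 called 27 genes, of which 20 have no name, and 4 were shared with the 6 called without the A libraries. Its named calls were grk7, kcnj15, acp5, col8a1 and slc4a4 higher and pdzrn4 and li-ac-37 lower in D28. Of these, grk7, kcnj15 and acp5 passed the filter through D28 alone, so that they could only come out higher.

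Gene groups are described by lists of known function and cell type. In each list, the first 3 genes tested are named by rule, and further members were picked out after their values were seen, mostly because their libraries did not overlap. No member of any list passed the test with all 6 libraries, and the counts below stand beside 5.32% of all genes with D28 entirely above and 4.29% with D28 entirely below PBS D21. The median log2 fold change of a list is given beside 0.02 over all genes, and it kept its sign under all 18 alternative settings in 12 of 36 lists. In sorted bulk RNA, fewer cells of a type and less RNA per cell cannot be told apart.

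The cartilage collagens were lower on average in D28, but the groups overlapped. Of 17 cartilage matrix genes, 8 were higher and 9 lower, with a median log2 fold change of -0.36, and 0.31 without the A libraries. The median changed sign under 5 of 18 alternatives, each of which left out, replaced or gave less weight to an A library. The collagen II gene col2a1 had 36309, 29559.5 and 44334 in D28, against 126247, 14539 and 76017 in PBS D21 (-0.98, 95% interval -2.63 to 0.68). The D28 libraries lay between PBS D21 B and the other PBS D21 libraries. The same held for the collagen IX genes, with 2596, 2208 and 3140.1 in D28 and 7023, 1426 and 6988 in PBS D21 for col9a1 (-0.96) and 3156, 3661 and 3856 in D28 and 11892, 2675 and 7969 in PBS D21 for col9a2 (-1.08). For col11a2, part of collagen XI, the counts were 20520.5, 21938 and 16414 in D28 and 114007, 8786 and 23009 in PBS D21 (-1.31, and 0.27 without the A libraries). Aggrecan, acan, had 809.5, 2106 and 5837 in D28 and 4816, 1423 and 4998 in PBS D21 (-0.36, and 0.31 without the A libraries). PBS D21 A was the highest library in each of these collagens, and PBS D21 B the lowest. Only 2 members had D28 libraries entirely above PBS D21. The joint lubricant prg4 had 157, 251 and 225 in D28 and 37.2, 108 and 89.7 in PBS D21 (1.43, 95% interval 0.17 to 2.698). The cartilage oligomeric matrix protein comp, also made by tendon, had 2027, 2215 and 2502 in D28 and 1846, 1268 and 1078 in PBS D21 (0.69, 95% interval -0.21 to 1.58).

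Factors of chondrocytes and sclerotome were divided, and the 3 SOX factors named by rule had negative fold changes. Sox9 had 368, 867 and 904 in D28, against 1372, 1053 and 1809 in PBS D21 (-0.98, 95% interval -2.001 to 0.03). Its partner sox5 had 205, 944 and 1070.4 in D28, against 1955, 1293 and 2098 in PBS D21 (-1.27, -2.53 to -0.01), and sox6 had 444, 729 and 1337 in D28 and 1101, 1086 and 1751 in PBS D21 (-0.65). The D28 libraries of sox9 and sox5 were all below those of PBS D21, and D28 A was the lowest in each of these genes. Higher in all D28 libraries were pax1, a factor of the embryonic sclerotome, with 81, 87.5 and 49.7 in D28 and 47.8, 18.3 and 11.5 in PBS D21 (1.48), and zbtb20, with 779.8, 677 and 1517 in D28 and 191, 320.2 and 653 in PBS D21 (1.35). The list of chondrogenic and sclerotome factors held 15 tested genes, 6 higher and 9 lower, with a median of -0.16 and of 0.01 without the A libraries.

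Genes of cartilage hypertrophy were split. Collagen X, col10a1, which marks hypertrophic chondrocytes, had 81, 39.2 and 43.7 in D28, against 117, 124 and 167 in PBS D21 (-1.31, 95% interval -2.69 to 0.06). Indian hedgehog, ihh, had 9.52, 21 and 10.3 in D28, against 24.8, 43.7 and 43.5 in PBS D21 (-1.45), and runx2 had 123, 197 and 149.9 in D28, against 301, 235 and 261 in PBS D21 (-0.76). These were the members with D28 entirely below PBS D21, 3 of 15, and none lay entirely above. Osteopontin, spp1, had 432, 415 and 1344 in D28 and 648, 2739.9 and 3319 in PBS D21 (-1.61, 95% interval -3.07 to -0.15), with PBS D21 A among the D28 libraries. The median of the list was 0.24, and -0.29 without the A libraries.

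Collagens of fibroblasts and basement membranes were mostly on the high side in D28. Of 18 genes tested, 16 had a positive log2 fold change, with a median of 0.52 and of 0.39 without the A libraries, where 12 were positive. Under the 18 alternatives the median lay within 0.24 to 0.77. The abundant fibrillar collagens did not separate the groups. The sorted gene col3a1 had 194767, 46842 and 41366 in D28 and 88253, 29135 and 80450.4 in PBS D21 (0.52, 95% interval -1.21 to 2.24, and -0.32 without the A libraries). Col1a1 had 465721, 104602 and 115654 in D28 and 200699, 63782 and 178419 in PBS D21 (0.63, and -0.14 without the A libraries), and col1a2 had 176044, 55256 and 60859.7 in D28 and 86699.7, 39594 and 115298 in PBS D21. In all 3 genes D28 A was the highest library, and D28 B and C lay between PBS D21 B and the other PBS D21 libraries. The 5 members with D28 entirely above PBS D21 were col8a1, given above, and collagens of basement membranes and their border. Col15a1 had 1719, 1199.8 and 1472 in D28 and 635, 388 and 794 in PBS D21 (1.27, 95% interval 0.34 to 2.20). The basement membrane chains col4a1 and col4a2 had 10155, 3982 and 4157 in D28 and 3930.3, 2005 and 3809 in PBS D21 (0.91) for col4a1 and 6039, 3289.7 and 4025 in D28 and 2216, 1802 and 2884 in PBS D21 (0.95) for col4a2. Col18a1 had 3277, 2330.4 and 2314 in D28 and 1953, 1538 and 2037 in PBS D21 (0.52). Without the A libraries the log2 fold changes of col15a1, col4a1, col4a2 and col18a1 were 1.18, 0.48, 0.64 and 0.38.

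Elastic fibre genes went in both directions. Elastin, eln, had 19305, 4845 and 8311 in D28, against 5264, 1592 and 2188 in PBS D21 (1.84, 95% interval 0.41 to 3.28), with PBS D21 A above D28 B. Fibrillin genes had 2386, 5382 and 4663 in D28 and 2587, 1565 and 2694 in PBS D21 for fbn1 (0.86) and 1876, 2160.0 and 3586 in D28 and 1824, 906 and 1851 in PBS D21 for fbn2 (0.73). The fibrillin-binding gene ltbp2 had 186, 573 and 493 in D28 and 173, 63 and 173 in PBS D21 (1.62, 95% interval 0.35 to 2.88). Of these 4 genes, fbn2 and ltbp2 did not overlap between the groups. The microfibril genes went in opposite directions, with 207, 107 and 202 in D28 and 38.9, 39.6 and 102 in PBS D21 for mfap5 (1.52) and 446, 625 and 333 in D28 and 950.3, 743 and 1642 in PBS D21 for mfap2 (-1.25). Fibulin-4, efemp2, was also below PBS D21 in all D28 libraries, with 285, 399.9 and 389 in D28 and 585, 613 and 441 in PBS D21 (-0.61). Over the 18 genes tested, 11 were higher and 7 lower, 3 entirely above and 2 entirely below, with a median of 0.28 and of 0.70 without the A libraries.

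Tenascins differed among themselves. Tenascin C, tnc, a matrix protein of wounds and blastemas, had 6074, 6393 and 6719 in D28, against 10258, 15736 and 10557 in PBS D21 (-0.93, 95% interval -1.94 to 0.08). The 3 D28 libraries were alike and all below PBS D21. Tenascin W, tnn, was scarce, with 26.2, 21.9 and 106 in D28, against 7.96, 4.07 and 2.56 in PBS D21 (3.36, 95% interval 0.51 to 6.21), and it passed the filter through D28 alone. Tnxb, of adult connective tissue, had 2429.8, 3549 and 4980.4 in D28, against 2750.0, 721 and 1583 in PBS D21 (1.12), and the neural tenascin tnr had 108, 21.9 and 13.7 in D28, against 60.2, 38.6 and 60.2 in PBS D21. Across 17 matricellular genes, 6 were higher and 11 lower (median -0.16), and without the A libraries 12 were higher (median 0.18).

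Small leucine-rich proteoglycans, which bind fibrillar collagen, gave no separation in any of the 9 genes tested, and their median was 0.18 (0.10 without the A libraries). Decorin, dcn, had 748, 431 and 979.6 in D28 and 324, 446 and 759.5 in PBS D21 (0.50). Lumican, lum, had 186, 151 and 331 in D28 and 173, 104 and 386 in PBS D21. Biglycan, bgn, had 456, 239.6 and 454 in D28 and 249, 330.4 and 437 in PBS D21. The spread within each group covered the difference between them in all 3 genes.

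**Figure D3:**
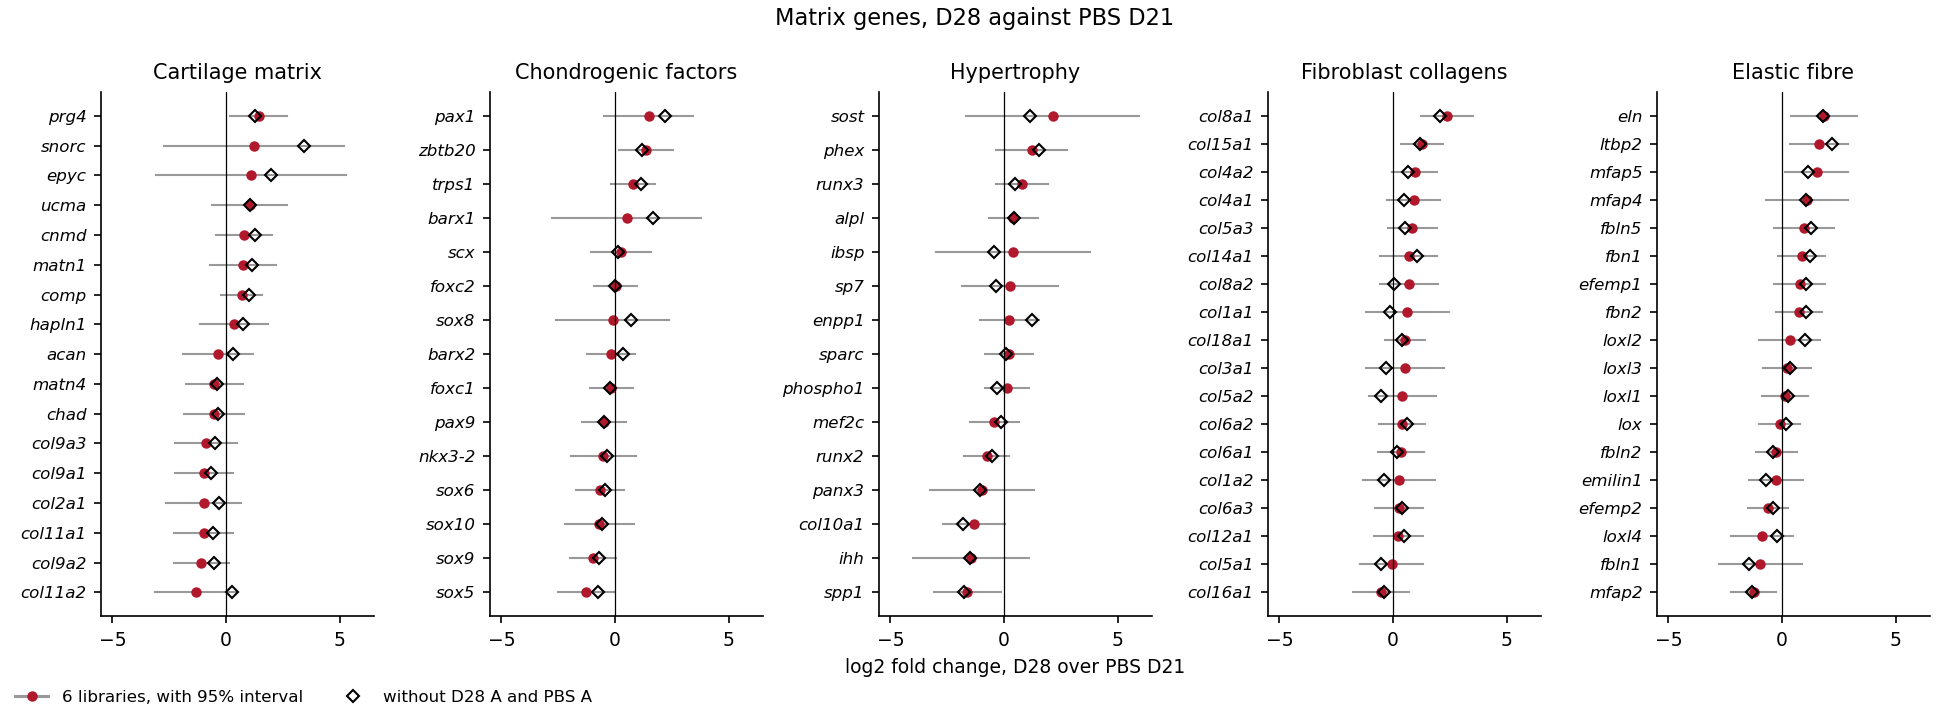
Log2 fold change of D28 over PBS D21 (x axis) for the tested genes of 5 matrix lists (y axis); red points are the fit of 6 libraries with 95% intervals in grey, and open diamonds the fit without D28 A and PBS D21 A. The intervals of col2a1, col3a1 and acan cross 0, as do most others. Those of col8a1, col15a1, eln, ltbp2 and prg4, among others, lie above 0, and those of sox5 and spp1, among others, below. The intervals are not adjusted for the number of genes.

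Contractile genes of myofibroblasts were on the high side, with 8 of 9 positive, a median of 0.63, 0.85 without the A libraries, and 0.53 to 0.99 under the 18 alternatives. The intermediate filament of muscle cells, des, had 148, 165 and 283 in D28, against 64.6, 79.3 and 113 in PBS D21 (1.21, 95% interval 0.02 to 2.41). The actin-binding lmod1 had 142, 245 and 149 in D28, against 24.8, 113 and 78.1 in PBS D21 (1.31), and myocd, a cofactor of smooth muscle transcription, had 208, 249 and 264 in D28, against 103, 163 and 199.8 in PBS D21 (0.63). These 3 genes lay entirely above PBS D21. Smooth muscle actin, acta2, had 9.52, 111 and 95.1 in D28, against 15.9, 12.2 and 20.5 in PBS D21 (2.15), with D28 A below every PBS D21 library. Calponin, cnn1, had 332, 249 and 196 in D28, against 209.7, 82.3 and 90.9 in PBS D21 (1.02), and transgelin, tagln, had 496, 299.7 and 266 in D28, against 342, 231 and 343 in PBS D21, both with overlap. Tropomyosin, tpm1, went the other way and lay entirely below PBS D21, with 2524, 3434 and 2180.2 in D28, against 5269.9, 3782 and 4099 in PBS D21 (-0.69). Summed over the list, the level was 3982, 4920 and 3734 in D28 and 6155, 4604 and 5096 in PBS D21. Tpm1 made up most of this sum, which was thus not on the high side in D28.

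Among 11 tendon genes 8 were higher, with a median of 0.21 (0.50 without the A libraries and 0.04 to 0.75 under all alternatives), and comp, given above, was the 1 member with no overlap. The tendon factor scleraxis, scx, had 468, 256 and 95.9 in D28 and 355, 179 and 146 in PBS D21. Tenomodulin, tnmd, had 45.2, 11.8 and 20.6 in D28 and 57.5, 0 and 10.2 in PBS D21, and the factor mkx had 135, 143 and 263 in D28 and 179, 171 and 118 in PBS D21. None of these 3 genes separated the groups.

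Proteases of the matrix separated the groups in 2 of 15 genes, and the list had a median of 0.23 (0.38 without the A libraries). The gelatinase mmp9, which osteoclasts also secrete, had 23.8, 54.7 and 109 in D28, against 115, 123 and 301 in PBS D21 (-1.52, 95% interval -3.07 to 0.03). The aggrecanase adamts4 had 3195, 3076 and 3424 in D28, against 1386, 1992 and 1794 in PBS D21 (0.91, 95% interval 0.03 to 1.79). Mmp9 was thus entirely below and adamts4 entirely above PBS D21. The gelatinase mmp2 had 831, 424 and 898 in D28 and 408, 659.8 and 1195 in PBS D21, and its activator mmp14 had 1238, 823 and 1231 in D28 and 1705, 993 and 2671 in PBS D21 (-0.71).

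Posterior Hox genes, which mark position along the body axis, were mostly on the low side in D28. Of 16 tested, 5 were higher and 11 lower, with a median of -0.35 (-0.72 without the A libraries), which stayed negative under the 18 alternatives (-0.73 to -0.08). Entirely below PBS D21 were 4 genes, and entirely above were 0. Hoxd9 had 158, 127 and 146 in D28, against 375, 314 and 314 in PBS D21 (-1.22, 95% interval -2.16 to -0.28), with little spread within either group. Hoxd11 had 287, 178 and 213 in D28, against 365, 665 and 571 in PBS D21 (-1.24, -2.20 to -0.28). Hoxc12 had 352, 406 and 325 in D28, against 486, 757 and 774 in PBS D21 (-0.90), and hoxc13 had 821, 658 and 488 in D28, against 1006, 1095 and 1528 in PBS D21 (-0.88). All 4 belong to the HoxC and HoxD clusters. Of the HoxA cluster, hoxa9 had 170.2, 283 and 229 in D28 and 76.1, 328 and 154 in PBS D21. Hoxa10 had 423, 454 and 308 in D28 and 239, 605 and 635 in PBS D21 (-0.32), and hoxa11 had 152, 220.5 and 98.5 in D28 and 131, 403 and 187 in PBS D21 (-0.61). These 3 genes overlapped between the groups, and PBS D21 A was the lowest PBS D21 library in each. Hoxd11 was also read in the 15 libraries normalized together. It had 375, 257 and 538 at D7, 406, 358 and 532 at D14 and 317, 196 and 235 at D28. The D21 experiment gave 99.98, 173 and 149.7 after ZA and 403, 734 and 630.5 after PBS, with ZA below every D28 library. The HoxA genes named above did not share this, and their ZA libraries overlapped with both D28 and PBS. Hoxa10 had 256, 771 and 564 after ZA, against 264, 668 and 701 after PBS.

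Factors of blastema mesenchyme were divided, 9 higher and 6 lower, with a median of 0.11 (0.02 without the A libraries). Twist1, which holds mesenchymal cells in an undifferentiated state, was the 1 member with no overlap, with 404, 456 and 352 in D28, against 793, 805 and 1016 in PBS D21 (-1.11, 95% interval -1.95 to -0.27). Prrx2, a homeobox gene of limb and tail mesenchyme, had 694, 809 and 488 in D28 and 697, 722 and 558 in PBS D21, nearly the same in both groups. Msx1 had 273, 179 and 48 in D28 and 0, 156 and 102 in PBS D21, and msx2 had 463, 1236 and 630.3 in D28 and 1708, 731 and 479 in PBS D21. The stem cell factor sall4 had 29.8, 70.1 and 113 in D28 and 95.6, 407 and 234 in PBS D21 (-1.78), with PBS D21 A among the D28 libraries.

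Genes of DNA replication and mitosis were mostly lower in D28. Of 22 tested, 4 were higher and 18 lower, with a median log2 fold change of -0.45, and -1.04 to -0.37 under the 18 alternatives. Without the A libraries 2 were higher and the median was -1.04. One member, the helicase subunit mcm7, lay entirely below PBS D21, with 270.2, 172 and 116 in D28, against 511, 322 and 457 in PBS D21 (-1.21, 95% interval -2.24 to -0.18). Topoisomerase top2a had 67.9, 203 and 161 in D28, against 132, 545 and 740.3 in PBS D21 (-1.71, -3.14 to -0.28). The proliferation marker mki67 had 424, 1084 and 638 in D28, against 431, 1464 and 1482 in PBS D21 (-0.65). In top2a and mki67, PBS D21 A had a level within the range of D28. The mitotic kinase plk1 had 162, 135 and 98.5 in D28 and 132, 315 and 284 in PBS D21 (-0.89), and the sliding clamp pcna had 521, 422 and 308 in D28 and 534, 399 and 443 in PBS D21. Summed over the list, the level was 3026, 3687 and 2291 in D28 and 2766, 5179.9 and 5604 in PBS D21, so that D28 A lay above PBS D21 A and the other D28 libraries below the other PBS D21 libraries.

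**Figure D4:**
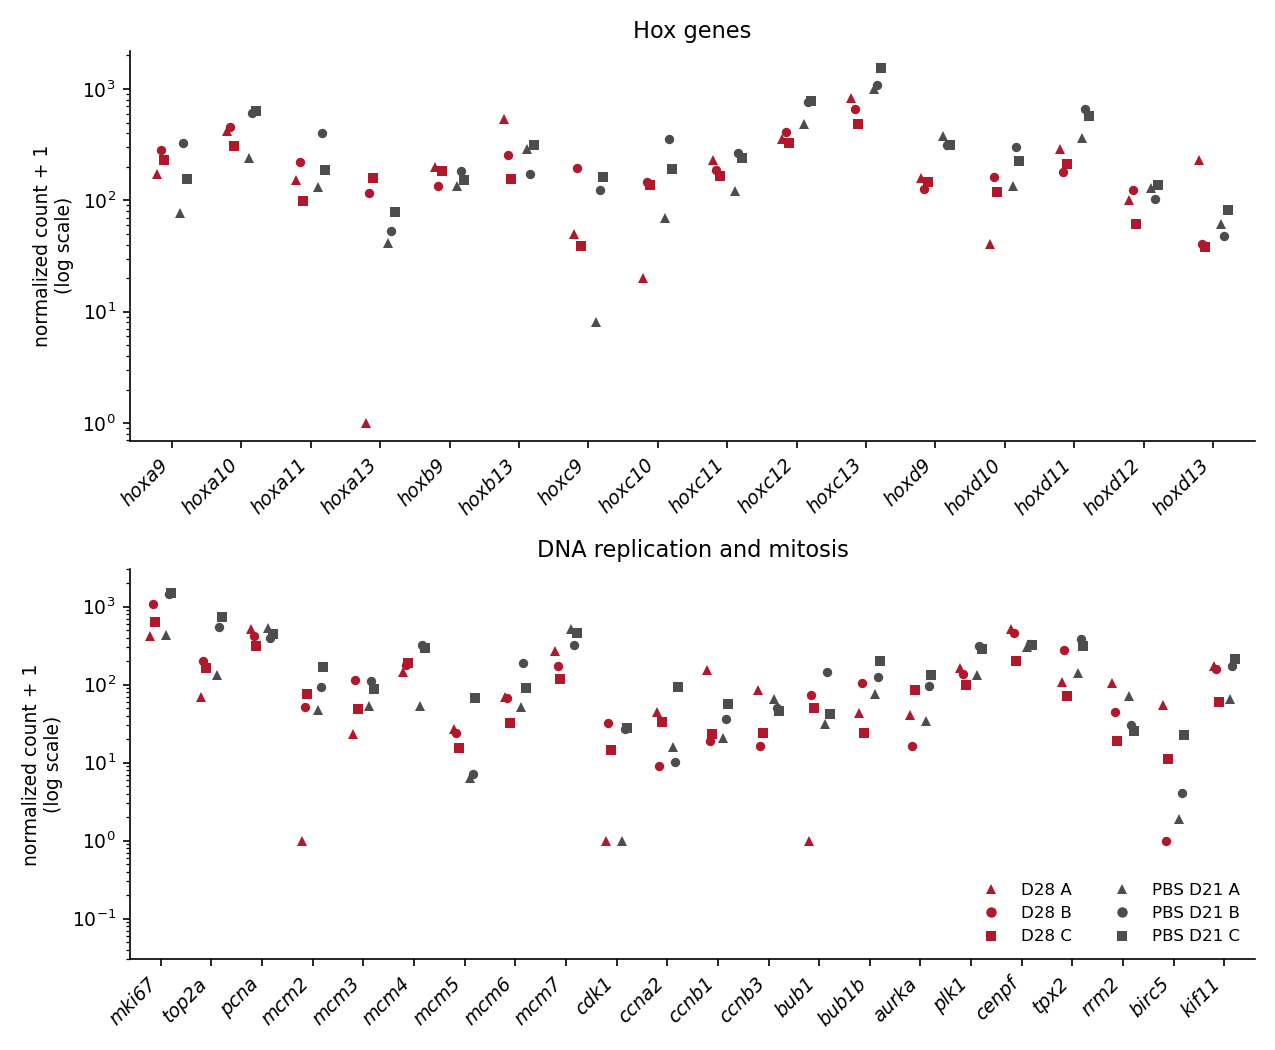
Normalized count plus 1 (y axis, log scale) of the tested Hox genes (top) and of genes of DNA replication and mitosis (bottom); points are libraries, D28 in red left of PBS D21 in grey, and shapes are replicates. In hoxd9, hoxd11, hoxc12, hoxc13 and mcm7 every D28 library lies below every PBS D21 library, and in most other genes the groups overlap.

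Ligands of the hedgehog pathway are expressed by the cartilage tube and the spinal cord of a regrowing tail. Of 14 genes of the pathway 8 were higher (median 0.09, and 0.11 without the A libraries), and ihh, given above, was the 1 gene with no overlap. Sonic hedgehog, shh, had 0, 51 and 35.1 in D28 and 60.2, 78.3 and 17.9 in PBS D21 (-0.85). Desert hedgehog, dhh, had 681, 68.3 and 105 in D28 and 69, 29.5 and 76.8 in PBS D21 (2.28), where D28 A alone was high.

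Of 25 Wnt genes 15 were higher (median 0.12, and -0.03 without the A libraries). The transcription factor lef1 was the 1 Wnt gene with no overlap, with 364, 355 and 316 in D28, against 415, 621 and 529 in PBS D21 (-0.60, 95% interval -1.46 to 0.27). The ligand wnt5a had 289, 425 and 522 in D28 and 365, 761 and 724 in PBS D21, wnt5b had 125, 214 and 128 in D28 and 80.5, 278 and 402 in PBS D21, and wnt2b had 95.2, 31 and 86.5 in D28 and 172, 62 and 192 in PBS D21. All 3 ligands overlapped between the groups, and D28 B was the lowest library for wnt2b.

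Of 24 TGF-beta and BMP genes 15 were higher (median 0.17, and 0.03 without the A libraries). The ligand tgfb1 had 1177, 629 and 594 in D28 and 694, 678 and 697 in PBS D21, tgfb2 had 971, 1671 and 1159 in D28 and 1281, 1748 and 1323 in PBS D21, and tgfb3 had 1604, 1179.8 and 809 in D28 and 1301, 846 and 958 in PBS D21. These ligands overlapped, whereas the BMP antagonist chrdl1 was entirely above PBS D21, with 118, 106 and 207 in D28 and 90.3, 17.3 and 96.1 in PBS D21.

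Of 16 FGF genes 11 were higher, with a median of 0.21 (0.07 without the A libraries and 0.04 to 0.37 under all alternatives). The ligands of mesenchyme differed in direction. Fgf10 was entirely below PBS D21, with 179.8, 254 and 200.4 in D28, against 257, 554 and 313 in PBS D21 (-0.82, 95% interval -1.83 to 0.18), and fgf7 entirely above, with 109.5, 127 and 81.4 in D28, against 54, 64 and 21.8 in PBS D21. The feedback inhibitor spry2 was also entirely above, with 565, 1063 and 682 in D28, against 432, 474 and 397 in PBS D21 (0.83, 95% interval -0.07 to 1.72). Fgf2 had 118, 22.8 and 48.8 in D28 and 60.2, 1.02 and 42.3 in PBS D21, and fgf9 had 277, 33.7 and 42 in D28 and 8.85, 66.1 and 28.2 in PBS D21, where D28 A was high.

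The IGF system had 11 of 13 genes higher, with a median of 0.42 (0.66 without the A libraries and 0.24 to 0.66 under all alternatives). The ligand igf2 had 274, 234 and 363 in D28 and 222, 181 and 247 in PBS D21. Igf1 had 0, 123 and 89.9 in D28 and 45.1, 42.7 and 65.3 in PBS D21, with 0 in D28 A, and the receptor igf1r had 2036, 2230.2 and 2399 in D28 and 1912, 2957 and 2321 in PBS D21. The 1 member with no overlap was pappa2, a protease that frees IGF from its binding proteins, with low values of 31, 10.02 and 20.6 in D28 and 2.65, 0 and 2.56 in PBS D21, which passed the filter through D28 alone.

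Among 22 axon guidance genes 11 were higher and 11 lower (median 0.02, and 0.15 without the A libraries), and 3 lay entirely above PBS D21. The repellent sema3a had 65.5, 82 and 67.6 in D28, against 38, 34.6 and 34.6 in PBS D21 (1.002, 95% interval -0.66 to 2.66). The semaphorin co-receptor nrp2 had 1133, 1502 and 1500.3 in D28, against 816, 985 and 1011 in PBS D21 (0.56, 95% interval -0.28 to 1.40). Netrin 4, ntn4, which is also a basement membrane protein, had 187, 50.1 and 84.8 in D28, against 26.5, 45.7 and 38.4 in PBS D21 (1.54). Sema3c had 148, 271 and 326 in D28 and 82.3, 253 and 147 in PBS D21, and sema3d had 164, 191 and 231 in D28 and 321, 224 and 310.0 in PBS D21, both with overlap.

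Of 23 immediate early genes, which respond within minutes to stimuli such as tissue digestion, 7 were higher with 6 libraries and 19 without the A libraries, with medians of -0.22 and 0.20. The AP-1 subunit fos had 28718, 34268 and 17476 in D28 and 62400.2, 23774 and 17487 in PBS D21. Fosb had 25271, 18313 and 12532 in D28 and 40733, 12031 and 16792 in PBS D21, and fosl1 had 2262, 5044 and 4082 in D28 and 9313, 6224 and 4147 in PBS D21. In each, PBS D21 A was the highest library.

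Of 22 genes of ribosomal proteins, 3 were higher with 6 libraries and 12 without the A libraries, with medians of -0.36 and 0.06. Summed levels were 10898, 21741 and 24779 in D28 and 31984, 22946 and 19889 in PBS D21, lowest in D28 A and highest in PBS D21 A. Rpl3 had 688, 939 and 1130.3 in D28 and 1392, 886 and 1227 in PBS D21 (-0.35), rpl4 had 1327, 3210.4 and 4394 in D28 and 4149, 3192 and 3333 in PBS D21, and rpl5 had 148, 451 and 753 in D28 and 641, 551 and 570.0 in PBS D21. The 1 member entirely below PBS D21 was rpl23, with 136, 189 and 218 in D28, against 608, 258 and 283 in PBS D21 (-1.08).

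Heat shock genes had 11 of 16 higher (median 0.15, and 0.35 without the A libraries). The chaperone hspa2 had 8292, 51377 and 30262 in D28 and 13262, 41666 and 24058 in PBS D21, and hspa8 had 1095, 7749 and 6079.9 in D28 and 3938, 5430.0 and 4756 in PBS D21. D28 A was the lowest library in both. The chaperone of the endoplasmic reticulum, hspa5, which folds secreted proteins such as collagens, was entirely below PBS D21, with 1773, 1801 and 1505 in D28, against 3704, 2609 and 2204 in PBS D21 (-0.75, 95% interval -1.65 to 0.16).

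Inflammatory genes had 11 of 17 higher (median 0.10, and 0.55 without the A libraries), and none separated the groups. Interleukin 1 beta, il1b, had 113, 16.4 and 145 in D28 and 56.6, 5.08 and 7.68 in PBS D21 (1.97), il11 had 36.9, 97.5 and 250.0 in D28 and 56.6, 37.6 and 35.9 in PBS D21 (1.56), and the receptor il6r had 420.2, 799.9 and 428 in D28 and 1538, 1013 and 574 in PBS D21. In il1b and il11 the highest library was D28 C. The feedback inhibitor of cytokine signalling socs3 had 2232, 4917 and 2985 in D28 and 4376, 4722 and 4101 in PBS D21 (-0.38), and il6 was not tested, with 0, 0 and 5.14 in D28 and 0 in each PBS D21 library.

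Interferon response genes had 4 of 12 higher (median -0.19, and -0.21 without the A libraries). The RNA sensor dhx58 and the kinase cmpk2 were entirely below PBS D21, with 47.6, 52.8 and 59.1 in D28, against 73.4, 99.6 and 64 in PBS D21 for dhx58. Cmpk2 had 125, 9.11 and 104 in D28, against 199.97, 328 and 154 in PBS D21 (-1.52). The ubiquitin ligase dtx3l was entirely above, with 89.3, 105 and 89.1 in D28, against 69.9, 57.9 and 69.2 in PBS D21. The sensor ifih1 had 498, 354 and 289 in D28 and 741, 449 and 311 in PBS D21, with overlap.

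Glycolysis genes had 3 of 15 higher, with a median of -0.21 (-0.21 without the A libraries and -0.42 to -0.17 under all alternatives). Hexokinase hk1 had 195, 147 and 221 in D28, against 267, 393 and 351 in PBS D21 (-0.85), and pyruvate kinase pkm had 729, 645 and 802 in D28, against 848, 983 and 939 in PBS D21 (-0.35). Both lay entirely below PBS D21. The glucose transporter slc2a1 had 1502, 1088 and 621 in D28 and 2371, 1029.9 and 1646 in PBS D21, and gpi had 229, 522 and 534 in D28 and 636, 759 and 471 in PBS D21. Nuclear genes of respiration had 4 of 11 higher and none without overlap (median -0.08, and 0.01 without the A libraries). Ndufb8 had 60.7, 117 and 112 in D28 and 175, 114 and 156 in PBS D21, and ndufs1 had 22.6, 241 and 204 in D28 and 120.3, 212 and 266 in PBS D21.

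Chromatin genes had 6 of 18 higher (median -0.24, and 0.01 without the A libraries). The maintenance methyltransferase dnmt1 had 327, 691 and 492 in D28 and 316, 843 and 819.7 in PBS D21. Of the de novo enzymes, dnmt3a had 1574, 1981 and 1108 in D28 and 2309, 2249.9 and 1798 in PBS D21, and dnmt3b had 0, 28.2 and 25.7 in D28 and 74.3, 111 and 3.84 in PBS D21. The 2 members entirely above PBS D21 both belong to Polycomb complex 2. Ezh1, a methyltransferase, had 119, 107 and 187 in D28 and 103, 86.4 and 106 in PBS D21, and eed had 112, 109 and 131 in D28 and 77, 93.5 and 41 in PBS D21.

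**Figure D5:**
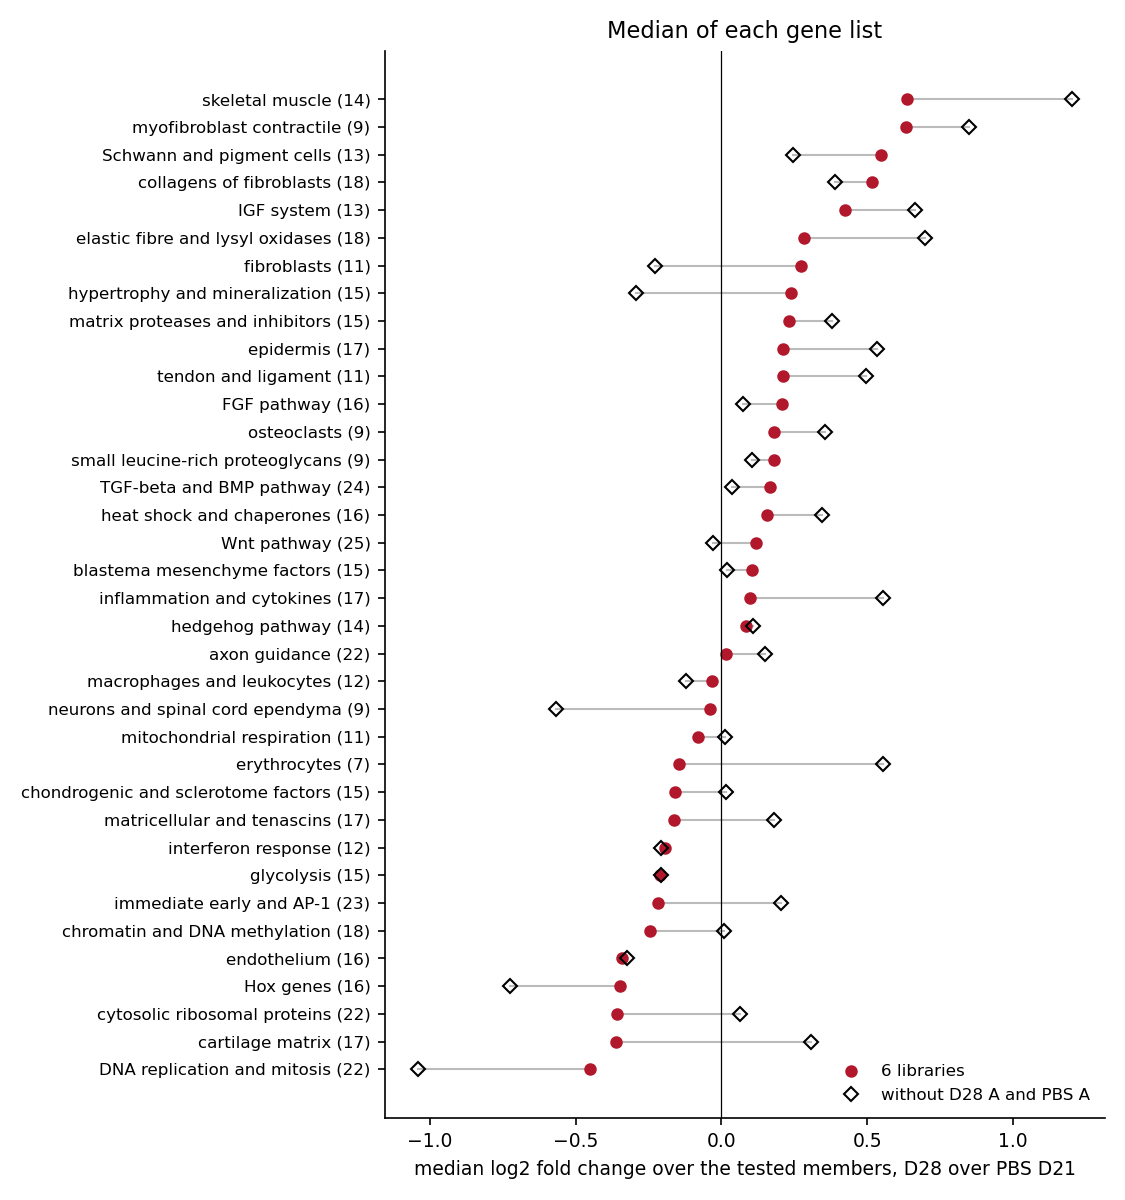
Median log2 fold change of D28 over PBS D21 (x axis) over the tested members of each of 36 gene lists (y axis, number of tested members in brackets); red points are the fit of 6 libraries and open diamonds the fit without D28 A and PBS D21 A. The median of DNA replication and mitosis is the lowest of the 36 with and without the A libraries (-0.45 and -1.04), and those of cartilage matrix and of ribosomal proteins change sign.

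Markers of the sorted cells and of cells that the sort should leave out were read in each library. Fibroblast genes were abundant. Their summed level was 843812, 211323 and 225191 in D28 and 383977, 138354 and 381906 in PBS D21, most of it from col1a1, col1a2 and col3a1, and highest in D28 A. Of 11 tested, 8 were higher and 3 lower, with a median log2 fold change of 0.27 (-0.23 without the A libraries). Beside the collagens, the receptor pdgfra had 613, 982 and 1406 in D28 and 684, 1388 and 1417 in PBS D21, and vim had 2187, 1983 and 2520.2 in D28 and 6120.2, 2335 and 3102 in PBS D21. Thy1 was near 0, with 0, 9.11 and 12 in D28 and 17.7, 0 and 1.28 in PBS D21.

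Epidermal genes were present in every library. The summed level of the 17 markers tested was 14076, 61964 and 45906 in D28 and 41674, 56569.9 and 21002 in PBS D21, lowest in D28 A and PBS D21 C. Of these, 12 were higher and 5 lower in D28, with a median log2 fold change of 0.21, and without the A libraries 14 were higher with a median of 0.53. The basal keratinocyte factor tp63 had 804, 2823 and 1165 in D28 and 2477, 3854 and 886 in PBS D21, and epcam had 1933, 3522 and 2068 in D28 and 8340.2, 3636 and 3256 in PBS D21 (-1.02). Krt18 was entirely above PBS D21 by a small margin, with 123, 83.8 and 101 in D28 and 41.6, 83.4 and 62.8 in PBS D21. The desmosomal cadherin dsg2 was entirely below, with 312, 393 and 296 in D28, against 782, 762 and 502 in PBS D21 (-1.03). Foxn1, a factor of skin, had 0, 813 and 449 in D28 and 425, 417 and 165 in PBS D21, with 0 in D28 A. Krt5, the gene of the second probe, was not analysed here.

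Markers of blood and bone cells differed between the libraries within each group. Leukocyte genes summed to 1700.0, 496 and 1662 in D28 and 2009, 1102 and 574 in PBS D21. Of 12 tested, 6 were higher and 6 lower, with a median log2 fold change of -0.03 (-0.12 without the A libraries). The lysosomal reductase ifi30 had 58.3, 206 and 290.3 in D28 and 291, 439 and 113 in PBS D21 (-0.60), the leukocyte antigen ptprc had 140.5, 1.82 and 59.9 in D28 and 36.3, 75.2 and 8.97 in PBS D21, and the macrophage receptor csf1r had 450.0, 114 and 343 in D28 and 52.2, 87.4 and 182 in PBS D21 (1.497). The macrophage genes spi1, tyrobp, c1qc, marco and aif1 were too low to test. Osteoclast genes summed to 1900.0, 2681 and 3102 in D28 and 3357, 2264 and 2673 in PBS D21, 5 of 9 were higher, and next to acp5 and mmp9, given above, the RANK receptor tnfrsf11a had 39.3, 19.1 and 25.7 in D28 and 12.4, 65.1 and 44.8 in PBS D21. Acp5, mmp9 and tnfrsf11a made up only a small part of the summed level. The osteoclast genes ocstamp and atp6v0d2 were too low to test. Ctsk, by which the study marks osteoclasts, and oscar did not match a gene of the data by symbol and were not analysed.

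Erythrocyte genes summed to 3349, 2456 and 1857 in D28 and 3983, 1804 and 2051 in PBS D21, highest in PBS D21 A, and 3 of 7 were higher (median -0.15, and 0.55 without the A libraries). The enzyme of haem synthesis alas2 had 119, 40.1 and 77.9 in D28 and 347, 3.05 and 11.5 in PBS D21, the anion exchanger slc4a1 had 549, 47.4 and 124 in D28 and 662, 9.15 and 236 in PBS D21, and gata1 had 28.6, 0 and 18.8 in D28 and 65.5, 0 and 1.28 in PBS D21. Endothelial genes had 5 of 16 higher, with a median of -0.34 (-0.33 without the A libraries) and a summed level of 1318, 793 and 1557 in D28 and 1662, 1830.0 and 1121 in PBS D21. The endothelial factor erg lay entirely below PBS D21, with 72.6, 36.4 and 80.5 in D28, against 142, 199 and 227 in PBS D21 (-1.58), and the junction gene esam entirely above, with 33.3, 22.8 and 64.2 in D28, against 9.73, 3.05 and 0 in PBS D21. Pecam1 had 63.1, 13.7 and 101 in D28 and 44.2, 79.3 and 21.8 in PBS D21, cdh5 had 73.8, 46.5 and 69.4 in D28 and 65.5, 61 and 10.2 in PBS D21, and kdr had 0, 44.6 and 41.1 in D28 and 31.9, 19.3 and 48.7 in PBS D21. The part of these cell types in the differences above was not tested.

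Nerve, pigment and muscle markers were uneven as well. Genes of Schwann and pigment cells summed to 4383, 4300.0 and 8097 in D28 and 6034, 4471 and 3886 in PBS D21. Of 13 tested, 10 were higher and 3 lower, with a median log2 fold change of 0.55 (0.25 without the A libraries). Myelin protein zero, mpz, had 235, 323 and 3132 in D28 and 1890.0, 151 and 254 in PBS D21, where D28 C and PBS D21 A stood out. The myelin gene mbp had 82.1, 113 and 435 in D28 and 169, 107 and 307 in PBS D21. The neural crest factor sox10 had 47.6, 64.7 and 258 in D28 and 119, 203 and 279 in PBS D21 (-0.70). The pigment cell factor mitf lay entirely below PBS D21, with 65.5, 418 and 303 in D28, against 1246, 711 and 453 in PBS D21 (-1.61). Neuronal genes summed to 1599, 2476 and 1517 in D28 and 1820.0, 2051 and 2284 in PBS D21, and 4 of 9 were higher (median -0.04, and -0.57 without the A libraries). Tubb3 had 63.1, 59.2 and 87.3 in D28 and 79.6, 56.9 and 97.3 in PBS D21, elavl3 had 195, 20.04 and 51.4 in D28 and 59.3, 96.6 and 34.6 in PBS D21, and snap25 had 31, 24.6 and 8.56 in D28 and 41.6, 1.02 and 11.5 in PBS D21.

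Skeletal muscle had 12 of 14 tested genes higher, with a median of 0.63 (1.20 without the A libraries and 0.31 to 1.20 under all alternatives). The summed level was 1883, 1625 and 3438 in D28 and 2001, 1218 and 1607 in PBS D21, and the groups overlapped. Of its members des, given above, and the myogenic factor myf5, with 77.4, 72.9 and 97.6 in D28, against 38, 18.3 and 35.9 in PBS D21, lay entirely above PBS D21. Creatine kinase ckm had 282, 247 and 128 in D28 and 213, 69.1 and 123 in PBS D21, acta1 had 0, 26.4 and 90.8 in D28 and 18.6, 44.7 and 21.8 in PBS D21, and the embryonic myosin myh3 had 34.5, 1.82 and 51.4 in D28 and 51.3, 2.03 and 5.12 in PBS D21. The last 2 were scarce in most libraries, and pvalb was at 0 in all 6. The growth factor receptor egfr had 1102, 1370.2 and 1387 in D28 and 839.7, 1337 and 1058 in PBS D21 (0.26), and myb, which reached 10 counts in too few libraries to be tested, had 0, 157 and 96.8 in D28 and 0, 1.02 and 0 in PBS D21.

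The li-ac genes, 10 with like names of which 7 were tested, were chosen after their values were seen and lie on sequence not placed on a chromosome. Li-ac-12, li-ac-13, li-ac-14 and li-ac-17 had 984 to 3822 in D28 B and C and 629 to 1243 in PBS D21 B, against 1.19 to 34.5 in D28 A and 0 to 8.97 in PBS D21 C. Libraries of 1 group thus differed more than 10-fold in these genes. Reads of near-identical copies could have been split between them, so that their single values are uncertain.

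Genes of the Y chromosome, also chosen after their values were seen, were mostly lower in D28. Of 26 tested, 3 were higher and 23 lower, with a median of -0.81 (-0.68 without the A libraries), and 5 lay entirely below PBS D21. Their summed CPM, the counts scaled to the library total, was 799, 1031 and 606 in D28 and 1907, 1934 and 1488 in PBS D21. It was 1139 to 1913 at D7, 913 to 1697 at D14 and 1257 to 2495 after ZA, so that D28 A and C were the lowest of all 15 libraries. LOC134292952 had 848, 1976 and 1233 in D28, against 5619, 4892 and 3757 in PBS D21 (-1.81, 95% interval -2.85 to -0.78). LOC134292953, which overlaps it, had 608, 753 and 603 in D28, against 2128, 2729.7 and 1241 in PBS D21 (-1.63), and the reads of both are uncertain for that reason. The X chromosome gave 151 genes higher and 153 lower, with a median of -0.01. Animals of both sexes were used, the labels give no sex for a library, and its part in these values was not tested.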

How the data were processed

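Sorted col3a1+ cells of regrown anole tails were profiled by stranded total RNA-seq with rRNA depletion, from fixed cells and an FFPE extraction kit. Reads were aligned by the authors with STAR to rAnoCar3.1.pri. The deposited values are named as normalized counts per gene, but they are whole numbers with unequal totals. They were therefore treated as raw counts, and every fit and interval here rests on that reading. The authors describe raw and normalized files alike. The counting tool and its strand setting are not given in the sources used here. The submitters' processing notes name DESeq2 1.45.1 and SAMtools 1.17.

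A gene was kept when 3 or more of the 6 libraries reached 10 counts. D28 was compared with PBS D21 by edgeR 4.0.16 (TMM, quasi-likelihood test, no covariate, R 4.3.3), with Benjamini-Hochberg adjustment over 19057 genes. A call needed an adjusted p under 0.05 and a log2 fold change beyond 2, the thresholds of the study's methods. Normalized counts are TMM-scaled to the mean library. Positions and gene kinds come from RefSeq, whose table matched 26339 of 26523 genes by symbol. The edgeR test was run on simulated counts with no library apart, where 200 of 200 genes with a log2 fold change of 4 in either direction were recovered. It made 9 false calls there. The simulated counts had the same dispersion in every gene, and the changes were set only in genes above a minimum expected count. Recovery there therefore does not show that changes of this size would be found in the real libraries. In those, LOC107983357 with a log2 fold change of -5.51 did not pass. The DESeq2, limma and voom fits were not run on simulated counts.

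The members, the 36 gene lists and the tests were chosen with earlier results of these data known. Named genes were the 10 of lowest p per direction that have a name and no overlap between groups (5 per direction without the A libraries), the first 3 tested of each list and 14 genes the study's text names. Others were picked after their values were seen, and some genes that the rule names are not reported here. Alternatives were leaving out the A library of each side, leaving out each library, the replicate letter as block, DESeq2 1.42.0, its size factors in edgeR, limma 3.58.1 on quantile-normalized values with a pseudocount of 1 and with prior counts of 0.5 and 5, voom with library weights, no filter on low counts, only genes averaging 50 or more counts, all 15 libraries in 1 fit, and the treatment entries as written, by which PBS D21 A carries none and a ZA library is PBS. Totals of 6310232 to 11329947 counts per library set the precision, and floors (3 counts over a group) and exact 95% intervals cover counting error only. Columns used were 1 per library, with 0 left unmapped.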

Additional observations from a re-analysis of the deposited data

How the results depend on the processing

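By edgeR with all 6 libraries, 0 genes passed in either direction, with 588 at an unadjusted p under 0.05. Without the A library of each side, 4 genes were called higher and 2 lower (6 by adjusted p alone, 1222 unadjusted). DESeq2 called 14 higher and 13 lower (28 by adjusted p alone, 833 unadjusted, and 116 genes with no adjusted p). Limma after quantile normalization, limma with a prior count of 5 and voom with library weights called 0 higher and 1 lower (1 by adjusted p alone), in each case LOC100566287. The fit with no filter called 0 higher and 4 lower of 24523 genes (4 by adjusted p alone), and that of all 15 libraries 0 higher and 2 lower (2 by adjusted p alone). Leaving out 1 library at a time gave 0 calls in every fit, with 517 to 980 genes at an unadjusted p under 0.05, the most without D28 A. The count was also 0 with DESeq2 size factors in edgeR, limma with a prior count of 0.5, a mean count of at least 50 and the treatment entries as written. Of 109 genes whose log2 fold change is given, 104 kept their direction under all 18 alternatives. Many of the 109 were chosen for a low p or for libraries that did not overlap. The direction of such genes could hardly change when the same libraries were refitted, so this share does not measure how stable the results are. Col2a1 turned to 0.25 with the treatment entries as written. Col11a2 turned to 0.27 without both A libraries, 0.30 without PBS D21 A and 0.73 with the entries as written. Acan turned to 0.31 without both A libraries, 0.085 without D28 A, 0.018 with voom and 0.40 with the entries as written. Col3a1 turned to -0.32 without both A libraries, -0.58 without D28 A and -0.22 with voom, and col1a1 to -0.14, -0.42 and -0.040 under the same settings. Leaving out 1 library at a time, col11a2 ranged within -1.80 to 0.30, acan -1.36 to 0.085, col3a1 -0.58 to 0.87 and col1a1 -0.42 to 0.99. The cause was not tested beyond the libraries named.

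With the replicate letter as a block, 0 genes were called and 625 had an unadjusted p under 0.05. Deviations from the group means correlated weakly between libraries of the same letter, at 0.111, 0.119 and 0.0105 for A, B and C. Between libraries of different letters the correlations ran from -0.136 to 0.0834, and D28 C correlated best with PBS D21 B. Deviations from a mean of 3 libraries depend on each other, so these values cannot decide whether the letters pair the samples. Over all genes, the median log2 fold change lay within 0.1 of 0 under every setting.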
